A study of Mus musculus with 6 samples.

Results

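The Bcl2 family was followed in metaphase II (MII) oocytes of aged ICR mice through 10 of its genes, which were taken by name from the 60193 genes of the deposited table. Of these genes, 53700 are annotated in Ensembl and 6493 are assembled loci, and no assembled locus carried the annotation of a member. The 10 members were grouped here as antiapoptotic (Bcl2l10, Mcl1, Bcl2 and Bcl2l1), effectors (Bax, Bak1 and Bok) and BH3-only (Bcl2l11, Bbc3 and Pmaip1). The rule finds the members by gene symbol and uses no measured value, although the family was picked with earlier results of these data known.

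The oocytes came from outbred females of 42 to 45 weeks, and each of the 6 samples pooled 20 oocytes from 3 mice. For in vitro maturation (IVM, 3 samples), the mice received 5 IU of PMSG, a gonadotropin that drives follicle growth, and germinal vesicle oocytes were taken 46 h later, stripped of cumulus cells and cultured in M16 medium for 12 h. For in vivo maturation (IVO, 3 samples), the mice received 5 IU of PMSG and then 5 IU of hCG, the ovulatory signal, 46 h later. The IVO oocytes were flushed from the oviduct 14 h after hCG and freed of cumulus cells with hyaluronidase. The groups therefore differ in hormone exposure, in cumulus contact during maturation and in the place and length of maturation, and these cannot be told apart. RNA was amplified from polyadenylated transcripts by SMART-Seq v4 and is given as FPKM, fragments scaled by transcript length and by library size, which allows levels to be compared between genes.

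Proteins of the Bcl2 family decide whether the outer membrane of the mitochondrion is opened during apoptosis. Bax, Bak1 and Bok can form the pore that lets cytochrome c out, the antiapoptotic members hold the effectors and the BH3-only proteins in check, and BH3-only proteins such as Bcl2l11 (Bim), Bbc3 (Puma) and Pmaip1 (Noxa) carry the death signal. They bind each other largely through the BH3 helix, which sits in a groove of the antiapoptotic members. Mammalian oocytes hold a stock of maternal mRNA and transcribe little during maturation, and Bcl2l10 (Diva) is known as a member with high mRNA in the oocyte.

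The stretch of coding sequence for the BH3 helix was searched with a pattern that the members other than Bcl2l10 held. It is shown for 4 of them, namely the 3 that could be tested besides Bcl2l10, and Bak1, which was listed at 0. The windows are 30 bases long, are written 5′ to 3′ on the coding strand, and were read from GRCm39 with the GENCODE M39 canonical transcripts. Capitals mark the 18 bases of the searched pattern, a leucine codon (CTN, TTA or TTG), any 3 codons, a glycine or alanine codon (GGN or GCN) and an aspartate codon (GAT or GAC), all in frame.
Bax: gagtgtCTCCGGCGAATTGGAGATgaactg
Bcl2l11: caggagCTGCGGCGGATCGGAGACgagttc
Bcl2l1: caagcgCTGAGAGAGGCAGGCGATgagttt
Bak1: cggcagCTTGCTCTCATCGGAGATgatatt

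The Bax window lies at chr7:45115424-45115453 on the minus strand, in exon 3 of 6. The Bcl2l11 window lies at chr2:127989064-127989093 on the plus strand, in exon 3 of 4. The Bcl2l1 window lies at chr2:152671620-152671649 and the Bak1 window at chr17:27241508-27241537, both on the minus strand. Of the 18 capital bases, Bcl2l11 and Bax shared 14, Bcl2l11 and Bak1 shared 11, Bcl2l1 and Bcl2l11 shared 9, and Bcl2l1 and Bax shared 8. The searched pattern itself fixes part of these bases, so these counts are a description only. In the coding sequence of Bcl2l10 (573 bases), the pattern had 0 matches, and each of the other 9 members held it at least once. It is a loose pattern, found in 5170 of 21483 mouse coding sequences of any length (24.1%), so that a match is a description only.

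The libraries were close in inferred depth, 16200000 to 19100000 fragments for IVM and 18200000 for each IVO sample, as read from the steps between low FPKM values. The inferred fragment length did not overlap between the groups, at 200 to 210 bases in IVM and 255 to 265 bases in IVO. Of the 18818 genes whose FPKM averaged 1 or more over the 6 samples, 3366 were called lower in IVO (17.9%) and 114 higher (0.606%), where a call needed |log2FC| ≥ 1 and an adjusted p under 0.05 (limma on log2(FPKM + 1), Benjamini-Hochberg). The median log2FC, taken as IVO minus IVM throughout, was -0.30 for all tested genes and -0.04 after median-ratio scaling. That scaling raised the calls higher in IVO to 388, and 84.4% of its calls were lower against 96.7% with the FPKM as deposited. Under quantile normalization, the median log2FC was 0.17, with 1097 genes called higher and 1580 lower. Zp1, Zp2, Zp3 and Nlrp5, 4 of the 8 oocyte markers, were called lower in IVO, and the oocyte marker sum was 4846 to 6580 FPKM in IVM and 2465 to 2940 in IVO.

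The family held one very abundant transcript, 3 at a few FPKM and 6 that averaged under 1 FPKM. Bcl2l10 alone made up 99.5% to 99.7% of the summed FPKM of the 10 members in every sample. Bcl2l11, Bcl2l1 and Bax followed between 1.26 and 5.48 FPKM. The other 6 members were left out of the test for their low level, so 4 of the 10 members were tested.

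**Figure D1:**
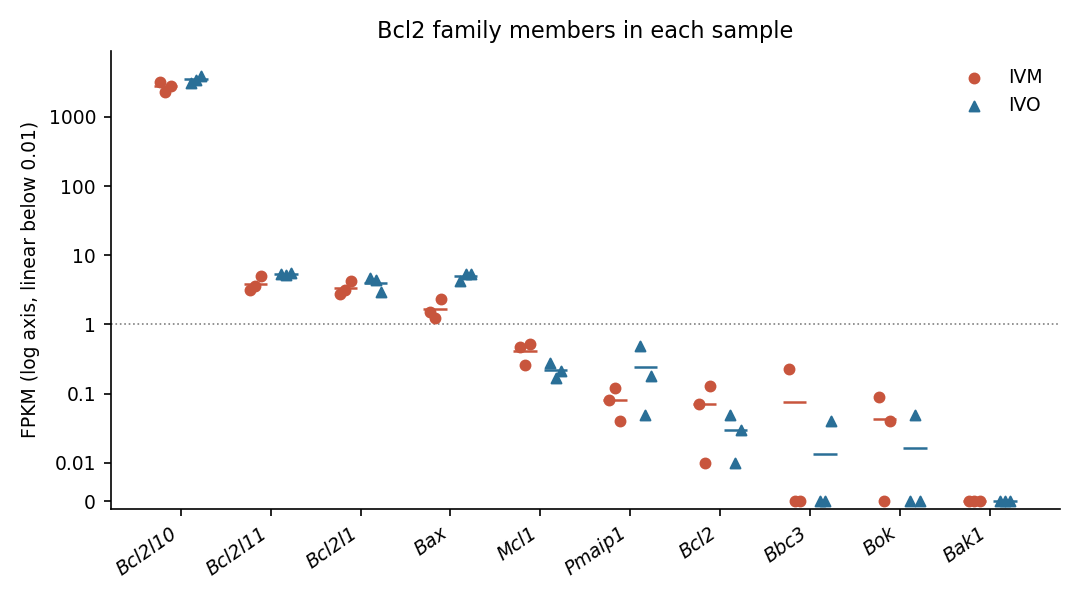
FPKM of the 10 members in each of the 3 IVM (circles) and 3 IVO (triangles) samples, on an axis that is logarithmic above 0.01 and linear below. Short lines are group means and the dotted line marks the filter at 1 FPKM. Bcl2l10 stands far above the other members in both groups, and Bax is the member whose groups lie farthest apart among the 4 above the dotted line.

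Of the 4 tested members, 1 was called (Bax, higher in IVO), against 18.5% of all tested genes called in either direction and 0.606% called higher. The IVO samples lay wholly above the IVM samples for 2 of the 4, Bax and Bcl2l11, which holds for 9.62% of all tested genes. The median log2FC of the 4 was 0.37. No tested member was called lower in IVO or had all IVO samples below the IVM samples, as 17.9% and 32.6% of all tested genes did, and 0 of the 4 were lower at an unadjusted p under 0.05 (limma). The share of all tested genes at that unadjusted p was not counted. Bax was also the only one of the 4 with a higher IVO level at an adjusted p under 0.05, whatever the fold, a set that holds 1.87% of all tested genes (limma).

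Among the antiapoptotic members, Bcl2l10 (ENSMUSG00000032191, chr9:75255040-75259442, plus strand) was measured at 3159.98, 2258.33 and 2819.49 FPKM in IVM replicates 1 to 3, and at 3082.44, 3428.39 and 3877.61 FPKM in IVO replicates 1 to 3. The ranges overlapped, since IVM replicate 1 exceeded IVO replicate 1. The group means were 2746 ± 455 for IVM and 3463 ± 399 for IVO (SD, n = 3). The transcript stood at ranks 74 to 119 of the Ensembl genes in IVM and at ranks 44 to 60 in IVO, and rested on 44773 to 69373 fragments a library. The log2FC was 0.34 (SE 0.17, 95% interval -0.06 to 0.74, limma adjusted p = 0.192), so that no difference was called. After median-ratio scaling, the log2FC was 0.67 with an adjusted p of 0.0447 by limma, past the p threshold but short of the fold threshold.

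Bcl2l1, which encodes Bcl-xL, was the next antiapoptotic member, far below Bcl2l10. Its gene lies at chr2:152622582-152673655 on the minus strand. It gave 2.72, 3.1 and 4.18 FPKM in IVM, and 4.67, 4.33 and 2.97 FPKM in IVO. The groups overlapped, with IVO replicate 3 below IVM replicate 2. The log2FC was 0.20 (SE 0.25, interval -0.39 to 0.79, limma adjusted p = 0.610), and the interval leaves room for a difference in either direction.

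Mcl1, a short-lived antiapoptotic protein, was detected at a low level. It gave 0.47, 0.26 and 0.52 FPKM in IVM, and 0.28, 0.17 and 0.21 FPKM in IVO, from 16 to 32 and 10 to 16 fragments a library. IVM replicate 2 fell within the IVO range. In a fit without the filter on low values, the log2FC of Mcl1 was -0.21 (limma adjusted p = 0.235). Bcl2, which gave the family its name, was lower still, at 0.07, 0.01 and 0.13 FPKM in IVM and 0.05, 0.01 and 0.03 FPKM in IVO, or 1 to 17 fragments a library. No difference was detectable for Bcl2 at this depth.

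Bax was the member that differed. Its gene (ENSMUSG00000003873, chr7:45111015-45116325, minus strand) encodes an effector that resides in the cytosol until it is activated and inserts into the mitochondrial membrane. It gave 1.5, 1.26 and 2.30 FPKM in IVM, and 4.28, 5.28 and 5.43 FPKM in IVO. Every IVO sample exceeded every IVM sample. The means were 1.69 ± 0.545 and 5.0 ± 0.625 (SD, n = 3), a ratio of 2.96. The added pseudocount of 1 shrinks a fold change at this level, and the log2FC on log2(FPKM + 1) was 1.17 (SE 0.24, interval 0.60 to 1.75, limma adjusted p = 0.0151). Its log2FC exceeded that of 99.2% of the tested genes.

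The Bax difference rested on few fragments, about 61 over the 3 IVM libraries and about 166 over the 3 IVO libraries. It was called in 15 of the 16 alternative fits that held Bax. Without IVO replicate 2, the log2FC of 1.14 had an adjusted p of 0.0560 by limma and the call was lost. The log2FC was 1.40 after median-ratio scaling (adjusted p = 0.0118 by limma) and 1.53 once each library's trend with gene length was removed (adjusted p = 0.0127 by limma). Bax is short (867 bases in the table), and among tested Ensembl genes under 1000 bases 0.657% were called higher and 22.3% lower. The part of the unequal fragment lengths in the Bax difference was not tested.

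Bax shares 192 exon bases on the same strand with Gm45808, an annotated protein-coding gene at chr7:45115408-45136235, and these bases include the BH3 window shown above. Gm45808 gave 317.91, 104.96 and 93.69 FPKM in IVM, and 31.44, 0 and 40.61 FPKM in IVO. Its values ran opposite to those of Bax, with a log2FC of -3.74 (SE 1.37, limma adjusted p = 0.0919). It was credited with about 2987, 1183 and 1047 fragments in IVM and about 300, 0 and 395 in IVO, more than Bax in every library but IVO replicate 2, where Bax had about 58. The estimated split of fragments between both genes was made before deposition, and its part in the Bax difference was not tested.

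Bak1, the effector closest to Bax in function, was listed at 0 FPKM in all 6 samples, while a count of 0 allows up to 0.0718 to 0.0850 FPKM at these depths (3 fragments, counting error only). Its gene lies at chr17:27238784-27247983 on the minus strand. It shares 437 exon bases with Ggnbp1, which gave 27.14, 19.57 and 19.80 FPKM in IVM and 9.95, 11.58 and 14.72 FPKM in IVO, and 177 with Gm50253, both on the opposite strand, and the libraries do not mark the strand. Bok, an effector that antiapoptotic members restrain poorly, gave 0.09, 0 and 0.04 FPKM in IVM and 0, 0.05 and 0 FPKM in IVO, at most 1 fragment a library. Among the effectors, Bax was therefore the only one above the floor in any library.

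Of the BH3-only members, Bcl2l11 (chr2:127967958-128004476, plus strand) was the highest. It gave 3.12, 3.59 and 5.0 FPKM in IVM, and 5.43, 5.18 and 5.48 FPKM in IVO. The groups did not overlap, although IVM replicate 3 at 5.0 FPKM came close to IVO replicate 2 at 5.18. The log2FC was 0.39 (SE 0.23, interval -0.13 to 0.92, limma adjusted p = 0.253), and no difference was called. After median-ratio scaling, it was 0.66 with a limma adjusted p of 0.0657. Under quantile normalization, it was 0.87 with a limma adjusted p of 0.0280, past the p threshold but short of the fold threshold.

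Bbc3 and Pmaip1, both transcribed under p53 in many cells, were close to the floor. Bbc3 gave 0.23, 0 and 0 FPKM in IVM and 0, 0 and 0.04 FPKM in IVO. Pmaip1 gave 0.08, 0.12 and 0.04 FPKM in IVM and 0.49, 0.05 and 0.18 FPKM in IVO, from 2 to 22 fragments a library. The Pmaip1 groups overlapped, and the higher IVO mean came mainly from IVO replicate 1. Without the filter on low values, the log2FC of Pmaip1 was 0.18 (limma adjusted p = 0.463).

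**Figure D2:**
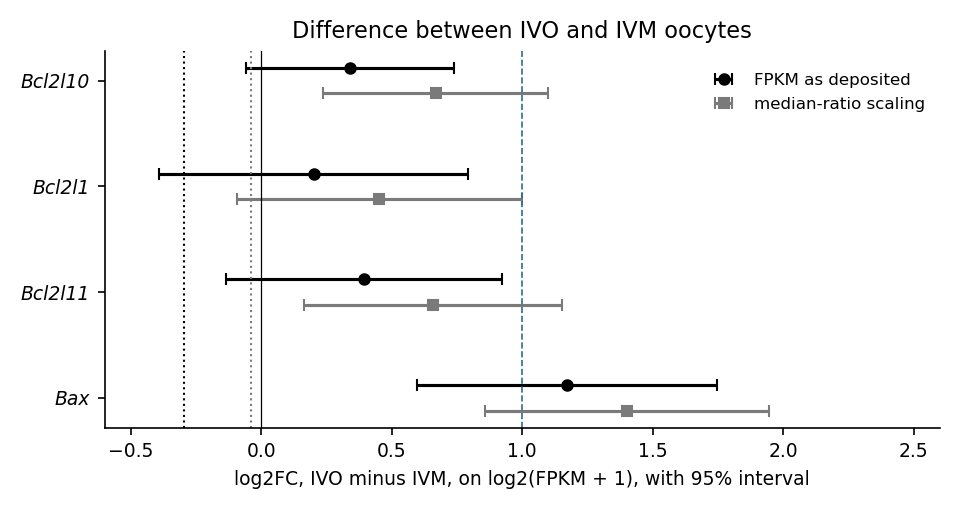
Differences between IVO and IVM for the 4 tested members, as log2FC on log2(FPKM + 1) with 95% intervals (3 samples a group), with the FPKM as deposited (circles) and after median-ratio scaling (squares). Dotted lines mark the median log2FC of all tested genes under each scaling, and the dashed line the fold threshold of 1. The estimates of all 4 members are above 0 under both scalings, and Bax at 1.17 and 1.40 is the one beyond the fold threshold.

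The 4 tested members stood above the median of all tested genes, by 0.64 for Bcl2l10, 0.50 for Bcl2l1, 0.69 for Bcl2l11 and 1.47 for Bax on the log2 scale. The place of Bax among the members differed between the groups. In IVM, Bax was below Bcl2l11 and Bcl2l1 in every sample, its highest value of 2.30 FPKM staying under the lowest of Bcl2l1, 2.72 FPKM. In IVO, the range of Bax (4.28 to 5.43 FPKM) overlapped both that of Bcl2l11 (5.18 to 5.48) and that of Bcl2l1 (2.97 to 4.67), so that Bax could not be set apart from either neighbour. Bcl2l11 and Bcl2l1 had overlapping ranges in IVM, and Bcl2l11 was the higher of this pair in each of the 6 samples.

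Ratios between members of one library are the same under any scaling by 1 factor a library, but not under quantile normalization or removal of the length trend, and are given for the FPKM as deposited. The ratio of Bcl2l1 to Bax was 1.81, 2.46 and 1.82 in IVM, and 1.09, 0.820 and 0.547 in IVO. The ratio of Bcl2l11 to Bax was 2.08, 2.85 and 2.17 in IVM, and 1.27, 0.981 and 1.01 in IVO. The ratio of Bcl2l10 to Bax was 2107, 1792 and 1226 in IVM, and 720, 649 and 714 in IVO. All 3 were lower in every IVO sample than in any IVM sample, and all share Bax as denominator. The ratio of Bcl2l10 to Bcl2l11, without Bax, overlapped between the groups, at 735 ± 243 in IVM and 646 ± 71.3 in IVO (SD, n = 3).

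**Figure D3:**
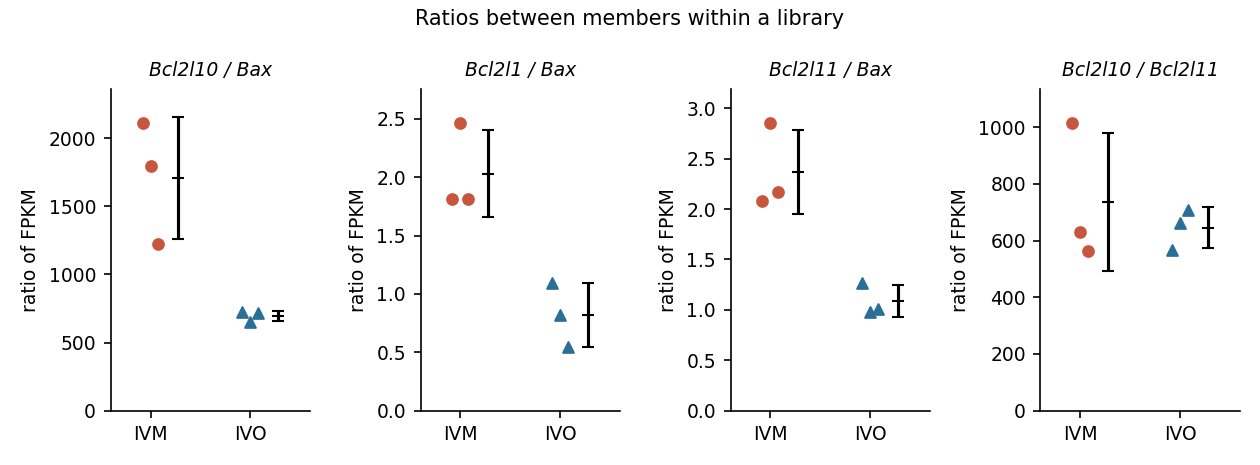
Ratios of FPKM between pairs of members within each library, with IVM samples as circles and IVO samples as triangles. Bars give the mean and SD of the 3 samples, and each axis starts at 0. The 3 ratios over Bax do not overlap between groups, whereas Bcl2l10 over Bcl2l11 does.

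The summed antiapoptotic FPKM exceeded the summed proapoptotic FPKM 489 ± 127 times in IVM and 326 ± 23.0 times in IVO (SD, n = 3), and this ratio is nearly that of Bcl2l10 alone to the proapoptotic sum. Both sums cover the 10 members only and count Bcl2l10 as antiapoptotic, a role not tested here. Bik, a BH3-only gene outside the 10, averaged 11.6 FPKM in IVM and 24.2 in IVO, above the proapoptotic sum in every sample. Other family genes outside the 10 were higher still and were assigned to neither side here. Their IVM and IVO means were 428 and 263 FPKM for Bnip3l, 75.9 and 117 for Bnip3, and 88.4 and 59.3 for Bcl2l13. The proapoptotic sum was 5.02, 4.97 and 7.38 FPKM in IVM and 10.2, 10.56 and 11.13 FPKM in IVO. Bax made up 28.8% ± 3.06 of it in IVM and 46.9% ± 4.34 in IVO. Once Bcl2l10 was left out, the antiapoptotic members summed to 0.661 ± 0.0153 of the proapoptotic sum in IVM and to 0.402 ± 0.103 in IVO. A ratio of mRNA levels is not one of protein, and proteins were not measured here.

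Other genes of the apoptotic pathway were followed in 5 lists of 52 genes, of which 41 were tested. By limma, 0 were called higher in IVO and 3 lower, against the 0.606% and 17.9% of all tested genes, while at an unadjusted p under 0.05 and any fold 6 were higher and 8 lower. No share of all tested genes stands beside these unadjusted counts or those below, so they are a description only. After median-ratio scaling, 3 were called higher (Bik, Chek1 and Mapk8, the last pair named after their values were seen) and 2 lower (Birc5 and Atm). Over all 18818 tested genes, that scaling called 388 higher (2.06%) and 2102 lower.

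Of 15 other Bcl2 family genes, 7 were tested and 0 called by limma, with a median log2FC of 0.19, and at an unadjusted p under 0.05 2 were higher (Bik and Bnip3) and 1 lower (Bnip3l). Bik, a BH3-only gene, gave 12.25, 9.63 and 12.94 FPKM in IVM, and 24.08, 28.22 and 20.30 FPKM in IVO, with no overlap. Its log2FC of 0.997 (SE 0.22, limma adjusted p = 0.0174) was just under the fold threshold, and it was called in 8 of 17 alternative fits. Bnip3 and Bnip3l, a pair of mitophagy receptors related to the BH3-only proteins, had log2FC of 0.62 and -0.67, with limma adjusted p-values of 0.0609 and 0.0543.

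Of 16 caspases, cofactors and inhibitors, 13 were tested and 2 were called lower in IVO by limma, against 17.9% of all tested genes. In this list, 0 were called higher, and the median log2FC was -0.34. At an unadjusted p under 0.05, 2 were higher and 5 lower by limma. Birc5, which encodes survivin, a mitotic protein and apoptosis inhibitor, gave 1180.62, 858.12 and 944.02 FPKM in IVM and 363.82, 311.53 and 292.85 FPKM in IVO, a log2FC of -1.61 (limma adjusted p = 0.00202). Aifm1, a mitochondrial flavoprotein that acts in death without caspases, had a log2FC of -1.28 (limma adjusted p = 0.0394), with the call kept in 6 of 17 alternatives.

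Of 13 upstream regulators, all were tested and 1 was called, Atm, the kinase that senses DNA double-strand breaks. It gave 119.35, 106.57 and 150.99 FPKM in IVM and 40.96, 11.97 and 47.72 FPKM in IVO, a log2FC of -2.07 (limma adjusted p = 0.0233), and was called in 11 of 17 alternatives. The median log2FC of this list was 0.22, and at an unadjusted p under 0.05 2 were higher and 1 lower by limma. Chek1 was higher in every IVO sample than in any IVM sample. Its log2FC of 0.75 (limma adjusted p = 0.00988) was short of the fold threshold. The outer membrane channels Vdac1, Vdac2 and Vdac3 had log2FC of -0.02, -0.73 and -0.15 and 0 were called by limma, with Vdac2 alone at an unadjusted p under 0.05. Vdac2 was lower in every IVO sample than in any IVM sample. Its limma adjusted p of 0.0327 was past the p threshold, but its log2FC was short of the fold threshold. Of the 5 genes of Mcl1 turnover, 0 were called and 0 had an unadjusted p under 0.05 by limma, the deubiquitinases Usp9x and Usp13 standing at 0.35 and -0.34 and the ubiquitin ligase Huwe1 at -0.31.

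**Figure D4:**
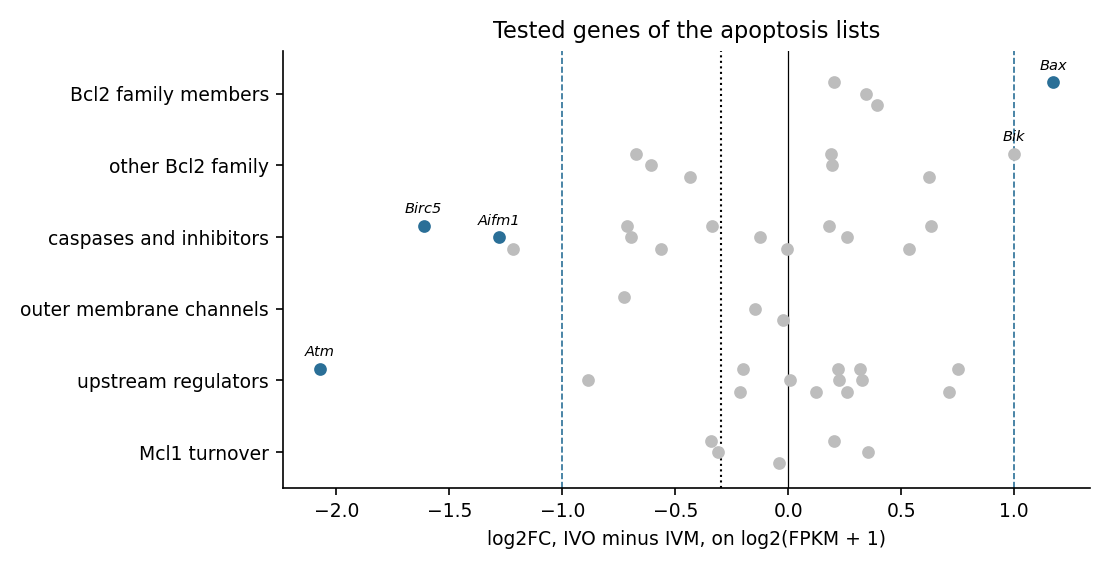
log2FC on log2(FPKM + 1), IVO minus IVM, of the 4 tested members and the 41 tested genes of the 5 lists, 1 point a gene. Blue points were called, dashed lines mark |log2FC| of 1 and the dotted line the median of all tested genes. Bax is the one called gene to the right, and Birc5, Aifm1 and Atm are called to the left.

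RNA of other cells could add to members of a few FPKM. Of 10 cumulus and granulosa markers, 8 stayed below 1 FPKM in all samples, with Amh at 0 and Foxl2 at most 0.02, and the sums were 23.9 to 33.5 FPKM in IVM and 29.9 to 35.2 in IVO, nearly all from Cyp19a1 and Fshr. The cumulus expansion genes Has2 (0.04 to 0.14 FPKM in IVM, 0.17 to 0.37 in IVO), Ptx3 (0 to 0.03 and 0.07 to 0.17) and Tnfaip6 (0 to 0.14 and 0.34 to 0.49) were higher in every IVO sample than in any IVM sample. Inha, Inhba, Star, Fshr and Cyp19a1 overlapped between the groups. Inha averaged 0.57 FPKM in IVM and 0.213 in IVO, Inhba and Star also had lower IVO means, and Fshr and Cyp19a1 had higher ones. Of 5 oviduct epithelium markers, 4 stayed below 1 FPKM, with Pax8 at 0, and the sums were 2.93 to 3.16 and 3.26 to 5.71 FPKM. The 4 blood and immune markers summed to 0 to 0.77 FPKM in IVM and 1.05 to 19.3 in IVO, led by Lyz2 at 15.67 FPKM in IVO replicate 3, with Ptprc at most 0.16. In IVO replicate 1, Hbb-bs and Hba-a1 were listed at 0 and Lyz2 at 1.04 FPKM, against 0 to 0.56 in IVM. The same library gave Has2 at 0.17, Ptx3 at 0.17, Tnfaip6 at 0.34 and Bax at 4.28 FPKM. The part of these cells in the Bax difference was not tested. In pooled samples, a change in the number of cells of a type and in the RNA per cell cannot be told apart.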

How the data were processed

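Paired reads were cleaned by the authors (SeqPrep, Sickle), mapped to GRCm39 (HISAT2 2.1.0) and quantified (RSEM 1.3.3), and the deposited values are FPKM for each gene in each sample, with group means that were not used here. The authors' own test (DESeq2 1.24.0) took counts, which were not used here. Groups came from the sample titles. Differences were tested with limma 3.58.1 (R 4.3.3, eBayes with trend, group alone) on log2(FPKM + 1), two-sided, for 18818 genes averaging 1 FPKM or more, with Benjamini-Hochberg adjustment over all of them. Tested on simulated data (18231 genes), the fit called 86 of 100 genes changed by 3 on the log2 scale, 34 of 97 changed by 1.5 and 5 of 18034 unchanged ones. The simulated noise was independent between genes, and the groups were given no difference in scaling or fragment length. These counts therefore do not cover false calls from such differences. Depth and fragment length were inferred from the steps of low values among 10184 genes with 1 transcript of 500 to 1500 bases. Of the 640 to 826 low values a library, 81.1% to 85.7% came out whole within 0.2 fragments. These are largely the values that set the depth, so the shares are no independent check. Fragments are amplified, so floors cover counting error only. Nothing in the labels ties pools of a group to separate days or animals beyond the 3 mice pooled, so p-values measure the spread between pools.

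All 10 members were reported, and of the 5 lists every called gene, or the 3 with the largest |log2FC| where none was called. 1 gene was left out of the lists and is not analysed here. Chek1, Mapk8 and Bcl2l13 were named besides, after their values were seen. The other genes of the lists enter only their counts and medians. Members and lists were chosen with earlier results of these data known. The alternatives comprised a smaller pseudocount (0.1), a filter at 5 FPKM or none, median-ratio, same-sum and quantile scaling, Ensembl genes only, a replicate block, eBayes with no trend, removal of the length trend, and leaving out each sample. Figures used matplotlib 3.10.9.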

Additional observations from a re-analysis of the deposited data

How the results depend on the processing

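Bcl2l10, Bcl2l1 and Bcl2l11 kept their direction and stayed uncalled in every alternative run, with log2FC of 0.21 to 0.68, 0.10 to 0.67 and 0.28 to 0.87. The log2FC of Bax ranged from 1.06 to 1.63, and from 1.06 to 1.33 with 1 sample left out. It lost its call without IVO replicate 2, which leaves 0 members called, and was not tested at a mean of at least 5 FPKM, where the members called were also 0. With 1 sample left out, the members called ranged from 0 to 1. The 3480 called genes became 2056 with Ensembl genes only, 2068 with the length trend removed and 929 with the replicate block added to that, and ranged from 2451 to 3343 with 1 sample left out. The 3 called genes of the 5 apoptosis lists became 1 without the filter, 5 with median-ratio scaling, 7 with quantile normalization and 1 with the replicate block and the removed length trend together, and ranged from 2 to 4 with 1 sample left out. The antiapoptotic to proapoptotic ratio fell from 489 to 2.06 in IVM and from 326 to 0.823 in IVO once the highest member of each side was left out, since Bcl2l10 carries it, and ranged from 418.9 to 542.6 and from 313.9 to 336.9 with 1 sample left out. The proapoptotic member left out as highest was Bax in IVO replicate 2 and Bcl2l11 in every other library. Deviations of same-numbered samples from their group means correlated at -0.0618, -0.0176 and -0.107. The labels do not say whether same-numbered samples are paired, and deviations from means of 3 samples cannot settle it. With the replicate block, 2991 genes were called and Bax kept its call at 1.17 (limma adjusted p = 0.0438). At 61 fragments over the IVM libraries for Bax and at most 32 a library for Mcl1, depth limits what can be seen of the lower members.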
